A study of Mus musculus with 6 samples.

Results

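The liver makes lipid-soluble compounds excretable by joining them to a sugar acid or to sulfate, and 10 genes of the enzymes that do so were followed here in livers of WT and *Sirt7* KO mice. They were chosen by name from the UDP-glucuronosyltransferase (UGT) and cytosolic sulfotransferase (SULT) families: *Ugt1a1*, *Ugt2b1*, *Ugt2b5*, *Ugt2b34*, *Ugt2b35*, *Ugt2b36*, *Ugt3a2*, *Sult1a1*, *Sult1d1* and *Sult2a8*. The 10 genes are among 54115 annotated genes in the data, and all 10 passed the filter on low counts that left 12524 genes for testing.

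UGT enzymes sit in the membrane of the endoplasmic reticulum and mostly transfer glucuronic acid from UDP-glucuronate to bilirubin, steroids, bile acids and drugs. SULT enzymes are cytosolic and transfer sulfate from the donor PAPS to phenols, steroids, catecholamines and bile acids. The conjugates leave the hepatocyte through transporters into bile or blood.

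The series held liver RNA from 6 male mice, 3 WT and 3 *Sirt7* KO, all 24 months old and fasted for 16 h before the livers were taken. The KO line had been crossed back to C57BL/6J, and heterozygous parents gave mice of both genotypes as littermates. The labels and methods name no other difference between the groups. SIRT7 is a nuclear NAD-dependent deacylase. Libraries were made from full-length cDNA of whole liver tissue and held 9994860 to 13424776 reads per mouse, which leaves transcripts with few reads uncertain.

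The full-length coding transcript of *Sirt7* (1727 bases) was estimated at 429, 381 and 408 reads in the 3 WT livers and at 124, 135 and 77.5 reads in the 3 livers of *Sirt7* KO mice. A short annotated transcript of 427 bases held 2.12, 5.12 and 0 reads in WT and 50.5, 54.1 and 93.3 in *Sirt7* KO mice, so that both readings separated the genotypes. Another coding transcript of 1218 bases was also higher in every KO mouse, with 43.0, 0 and 65.3 reads in WT and 83.5, 119 and 192 in KO mice. A retained-intron transcript of 3274 bases was lower in every KO mouse, with 85.3, 50.1 and 53.2 reads in WT and 8.45, 23.9 and 12.2 in KO mice. Summed over all its transcripts *Sirt7* stood at 55.2, 45.5 and 47.3 CPM (counts-per-million units, with library sizes scaled by the TMM method of edgeR) in WT and 28.6, 41.7 and 40.8 CPM in *Sirt7* KO mice. The fitted log2 difference of -0.41 (SE 0.18) turned to 0.80 with transcript length as an offset in edgeR. Of the 8 hepatocyte markers listed, 7 were in the annotation and none of them was at 0 in any mouse. WT mouse 1 stood apart: the summed level of 16 male-biased liver genes was 3921 CPM in it, 28260 and 36566 in the other WT mice and 43558 to 59066 in the KO mice. *Sirt7* KO mouse 3 held *Slc34a1* at 9.73 and *Umod* at 3.85 CPM, a pair of kidney transcripts named after their values were seen, where the other mice had at most 0.148 and 0. The whole list of 6 kidney and intestine markers did not set this mouse apart, with 34.7 CPM in it, 27.1 to 92.7 in WT and 24.2 and 48.2 in the other KO mice, and most of these sums came from *Fabp2*. The edgeR fits were therefore also computed without each of these mice. DESeq2, permutation tests, family and marker sums, TPM values and transcript or pool shares were not.

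None of the 10 genes was called between the genotypes at an edgeR adjusted p under 0.05 with a fold change over 1.5, the rule by which 0.00798% of all tested genes were called. At an unadjusted edgeR p under 0.05 stood 2 of the 10, against 11.3% of all tested genes. *Ugt2b1* was higher in *Sirt7* KO mice, as were 6.54% of all tested genes by that rule, and *Ugt2b34* was lower, as were 4.78%. In 5 of the 10 the CPM values of the genotypes were fully apart, against 16.8% of all tested genes. *Ugt2b1* and *Ugt3a2* were higher in every *Sirt7* KO mouse, where 8.74% of all tested genes were, and *Ugt1a1*, *Ugt2b34* and *Ugt2b36* were lower in every one, where 8.09% were. The median log2 fold change of the 10 genes was -0.0033, beside -0.0061 over all tested genes. The 5 UGT genes that were lower and the 3 SULT genes and 2 UGT genes that were higher differed by less than 1.5-fold in every case but *Ugt2b1*. In bulk liver, fewer cells of a type and less RNA per cell cannot be told apart.

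**Figure D1:**
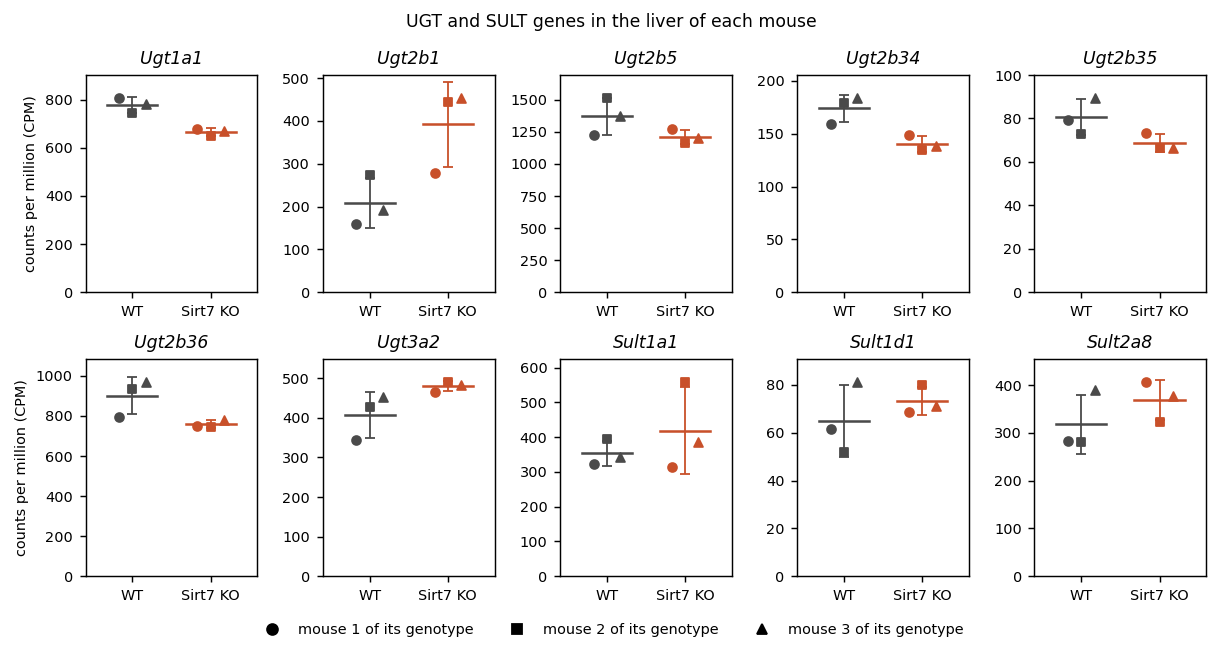
TMM-scaled CPM of the 10 genes, each panel with its own vertical axis from 0; each point is a mouse, the horizontal line is the mean and the bar the SD of 3 mice. *Ugt2b1* is higher in all 3 *Sirt7* KO mice (278 to 454 CPM) than in the WT mice (159 to 273 CPM), and *Sult1a1* has 1 high KO mouse at 559 CPM.

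The Ugt2b genes conjugate steroids, bile acids, fatty acids and drugs, and they lie next to each other on chromosome 5. In the GRCm38 annotation *Ugt2b34*, *Ugt2b1*, *Ugt2b35*, *Ugt2b36* and *Ugt2b5* follow one another from 86889767 to 87140318. *Ugt2b37*, *Ugt2a3*, *Ugt2b38* and the olfactory-type *Ugt2a1* and *Ugt2a2* come next, and *Sult1b1*, *Sult1d1* and *Sult1e1* close the run at 87591594. Of these neighbours only *Ugt2b35* is on the plus strand.

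The starts of 4 Ugt2b genes are shown because the genes differ in how much sequence they share there. *Ugt2b1* and *Ugt2b34* are the members farthest apart in genotype values, and *Ugt2b36* and *Ugt2b5* lie beside each other. Each run holds the 120 bases before the RefSeq start, in the direction of the gene (GRCm38.p6, sequences from RefSeq). Capitals mark bases that stand in a word of 16 bases found before the start of another Ugt2b gene.
Ugt2b34 chr5:86906938-86907057 (minus strand): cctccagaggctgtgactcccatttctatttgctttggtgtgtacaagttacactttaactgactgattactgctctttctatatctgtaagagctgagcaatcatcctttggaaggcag
Ugt2b1 chr5:86926504-86926623 (minus strand): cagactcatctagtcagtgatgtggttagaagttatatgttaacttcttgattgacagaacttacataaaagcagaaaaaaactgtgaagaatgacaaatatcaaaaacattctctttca
Ugt2b36 chr5:87092556-87092675 (minus strand): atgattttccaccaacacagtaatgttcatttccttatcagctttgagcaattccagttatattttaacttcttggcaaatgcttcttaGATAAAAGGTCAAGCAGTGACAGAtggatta
Ugt2b5 chr5:87140341-87140460 (minus strand): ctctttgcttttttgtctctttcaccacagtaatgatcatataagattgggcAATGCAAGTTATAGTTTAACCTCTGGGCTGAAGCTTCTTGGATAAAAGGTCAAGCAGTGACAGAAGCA
The words were compared on the strand of the gene over the 250 bases before the start of 7 Ugt2b genes, and the word length was chosen after these windows had been seen. *Ugt2b1*, *Ugt2b34* and *Ugt2b35* held no shared word. *Ugt2b36* shared 24 of its 250 bases, all within the printed run, and *Ugt2b5* shared 132, with *Ugt2b37* and *Ugt2b38* among the partners of both. Over the 250 bases *Ugt2b1* matched the other Ugt2b genes at 51.6% to 55.2% of positions and *Ugt2b34* did at 52.0% to 55.2%. *Ugt2b5* matched *Ugt2b38* at 84.8%. These are identical bases of a gapped alignment as a part of 250, and the value for unrelated sequences was not computed. Shared letters are a description and do not show how the genes are controlled.

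*Ugt2b1* (chr5:86916638-86926530, minus strand) had the widest genotype difference of the 10 genes. Its level was 159, 273 and 191 CPM in the WT mice and 278, 445 and 454 CPM in the *Sirt7* KO mice. All 3 KO mice were above all 3 WT mice, but the lowest KO mouse and the highest WT mouse were nearly level. The fitted fold change was 1.89 (log2 fold change 0.92, SE 0.25), with an edgeR adjusted p of 0.223. An exact two-sided permutation test of the 6 mice gave p = 0.1, the smallest it can give. DESeq2 called the gene with an adjusted p of 0.013 without length offsets and 0.0355 with them, under rules that called 1.78% and 1.93% of genes. Without WT mouse 1, whose male-biased genes were low, the log2 fold change was 0.75 (edgeR adjusted p 0.422), and without KO mouse 3, which held *Slc34a1* and *Umod* reads, it was 0.80 (edgeR adjusted p 0.52). Without KO mouse 1, the lowest KO mouse for this gene, it was 1.11 with an edgeR adjusted p of 0.0474, a call that 1.95% of genes received in that fit. With no filter on low counts edgeR called it as well, along with 2.27% of genes. Only 0.826% of the words of 31 bases in *Ugt2b1* occurred in another gene, so its reads were hardly shared with its neighbours.

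*Ugt2b34* (chr5:86889767-86906937, minus strand) differed in the other direction. It had 159, 179 and 184 CPM in WT and 149, 134 and 138 CPM in *Sirt7* KO mice. Each KO mouse was below each WT mouse, and the fit gave a log2 fold change of -0.31 (SE 0.14, edgeR adjusted p 0.434).

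*Ugt2b36* (chr5:87065927-87092555, minus strand) was among the most abundant of the genes. It stood at 796, 935 and 970 CPM in WT and at 750, 747 and 782 CPM in *Sirt7* KO mice. The KO mice lay close together below the lowest WT mouse, which was WT mouse 1. The log2 fold change was -0.24 (SE 0.15, edgeR adjusted p 0.588).

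*Ugt2b5* (chr5:87124960-87140318, minus strand) had 1225, 1516 and 1374 CPM in WT and 1272, 1160 and 1199 CPM in *Sirt7* KO mice. *Ugt2b35* (chr5:87000860-87013275, plus strand) had 79.4, 72.9 and 89.5 CPM in WT and 73.3, 66.2 and 66.4 CPM in *Sirt7* KO mice. KO mouse 1 lay above WT mouse 1 in *Ugt2b5* and just above WT mouse 2 in *Ugt2b35*, and all other pairs had the KO mouse lower. Their log2 fold changes were -0.18 (SE 0.16) and -0.23 (SE 0.14), neither called. In *Ugt2b5* 56.4% of the 31-base words occurred in another gene, most of them in *Ugt2b38*, so the split of reads between these 2 genes is uncertain.

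Summed over the 7 Ugt2b genes of the annotation, the level was 2431, 2985 and 2822 CPM in WT and 2547, 2569 and 2661 CPM in *Sirt7* KO mice. The sums overlapped, with a difference of -0.08 on the log2 scale and an exact permutation p of 0.4. Within that sum the part of *Ugt2b1* was 6.56%, 9.13% and 6.77% in WT and 10.9%, 17.3% and 17.1% in *Sirt7* KO mice, without overlap. The sum of the subfamily thus differed by less than its spread while *Ugt2b1* made up a larger part of it in every KO mouse.

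*Ugt1a1* (chr1:88211959-88218997, plus strand) encodes the enzyme that conjugates bilirubin. Its level was 808, 744 and 781 CPM in WT and 680, 648 and 672 CPM in *Sirt7* KO mice. The genotypes did not overlap, and the spread was narrow in both. The log2 fold change was -0.22 (SE 0.14, edgeR adjusted p 0.592), and it ranged from -0.25 to -0.20 when 1 mouse was left out. *Ugt1a1* shares its last exons with the other Ugt1a genes, and 81.3% of its 31-base words occurred in another gene, so only reads at its own first exon assign it. The sum of the 9 Ugt1a genes was 1217, 1231 and 1226 CPM in WT and 1100, 1227 and 1115 CPM in *Sirt7* KO mice. The sums overlapped by 1 mouse, with an exact permutation p of 0.3.

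*Ugt3a2* (chr15:9335550-9370955, plus strand) belongs to a subfamily that uses other UDP-sugars than UDP-glucuronate. It had 343, 427 and 453 CPM in WT and 466, 491 and 484 CPM in *Sirt7* KO mice. Every KO mouse was above every WT mouse. The log2 fold change was 0.24 (SE 0.15, edgeR adjusted p 0.615), and 0.12 without WT mouse 1, its lowest mouse. Its neighbour *Ugt3a1*, which held most of the words it shared, had a log2 fold change of 0.0048 (SE 0.14).

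The 3 sulfotransferases all overlapped between the genotypes. *Sult1a1* (chr7:126672865-126676432, minus strand), the phenol sulfotransferase, stood at 324, 394 and 343 CPM in WT and 313, 559 and 385 CPM in *Sirt7* KO mice. KO mouse 2 alone was high and KO mouse 1 was the lowest of all 6. The log2 fold change was 0.24 (SE 0.22, edgeR adjusted p 0.724), and without KO mouse 2 it was -0.019.

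*Sult1d1* (chr5:87554645-87569027, minus strand), which sulfates catecholamines, stood at 61.7, 51.8 and 81.2 CPM in WT and 68.6, 80.0 and 71.2 CPM in *Sirt7* KO mice. The KO mice lay within the range of the WT mice. Its log2 fold change was 0.17 (SE 0.18), and no 31-base word of it occurred in another gene.

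*Sult2a8* (chr7:14410686-14446769, minus strand), a bile acid sulfotransferase of mouse liver, stood at 283, 280 and 389 CPM in WT and 406, 322 and 377 CPM in *Sirt7* KO mice. WT mouse 3 lay among the KO mice. The log2 fold change of the gene was 0.22 (SE 0.18, edgeR adjusted p 0.705).

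Within *Sult2a8* the reads were divided between transcripts that begin at different first exons. The annotation starts 3 transcripts at upstream first exons (chr7:14446442-14446586 and chr7:14446596-14446769) and 3 at a downstream first exon (chr7:14438456-14438551), 8035 bases further along. The leading transcript of each kind has 7 exons, of which 5 have the same ends, and the last exon differs by 3 bases, so that the first exon is what sets them apart. The run before the downstream start (RefSeq, GRCm38.p6) is shown since the share of this start is described next, with the letters TATAAA in capitals from -29 to -24.
Sult2a8 chr7:14438552-14438671 (minus strand): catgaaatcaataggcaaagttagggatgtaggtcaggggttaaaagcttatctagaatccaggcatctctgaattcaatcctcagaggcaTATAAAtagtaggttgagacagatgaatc
The window of the upstream start held TATAAA as well, on the other strand from -223 to -218, and the letters were found on either strand in 12.4% of all such windows of 250 bases before a start.

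The upstream transcripts held an estimated 99.3, 144 and 184 CPM in WT and 211, 230 and 266 CPM in *Sirt7* KO mice. Every KO mouse was above every WT mouse. The downstream transcripts held 183, 134 and 203 CPM in WT and 192, 91.6 and 110 CPM in *Sirt7* KO mice, with overlap. The downstream start took 64.9%, 48.2% and 52.4% of both in WT and 47.6%, 28.5% and 29.3% in *Sirt7* KO mice, a mean of 55.2% ± 8.65 (SD, n = 3) against 35.1% ± 10.8 (SD, n = 3). The share was lower in every KO mouse, but KO mouse 1 was close to WT mouse 2. Among 7350 tested genes whose leading transcript held at most 90% of the reads, the share of that transcript did not overlap between the genotypes in 9.1%. These shares are Salmon estimates that rest on the reads at the first exons, which are 96 bases (downstream) and 145 and 174 bases (upstream) long, and the grouping by first exon was made after the shares had been seen.

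**Figure D2:**
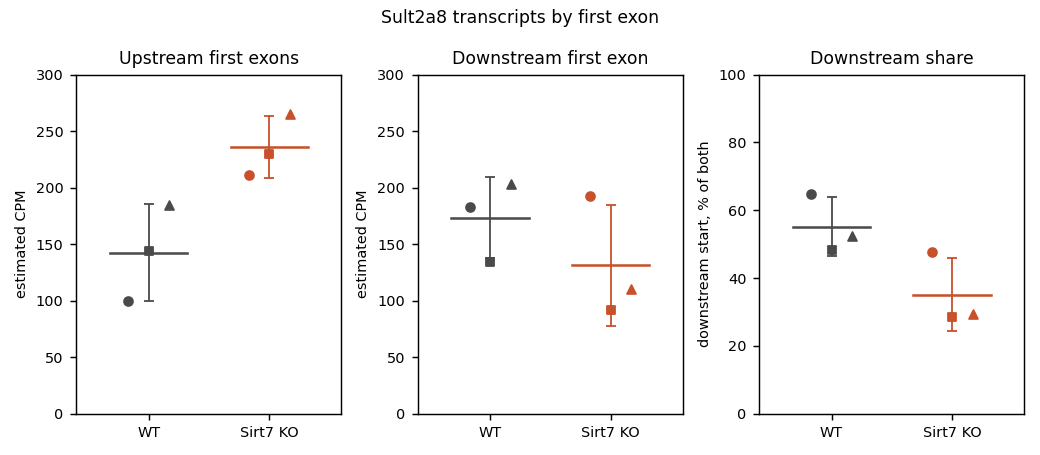
Estimated CPM of *Sult2a8* transcripts with upstream first exons (left) and the downstream first exon (middle), and the downstream share in percent (right); points are mice (circle, square and triangle for mice 1 to 3 of a genotype), lines means and bars SD of 3 mice. Upstream transcripts reach 211 to 266 CPM in *Sirt7* KO mice and 99.3 to 184 CPM in WT mice.

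Transcript shares were also compared in the other genes with more than one transcript. The leading transcript of *Ugt2b36* held 74.6%, 71.2% and 78.9% of its reads in WT and 85.2%, 66.1% and 65.0% in *Sirt7* KO mice, and these overlapped. The leading transcript held over 90% of the reads, averaged over the 6 mice, in the other 8 genes. Among these *Ugt2b34* alone had shares that did not overlap, with a second transcript of 2.05 to 8.16 reads in WT and 7.86 to 8.01 in *Sirt7* KO mice that took 0.0843% to 0.434% and 0.493% to 0.62% of its reads. The reads themselves overlapped. How many genes with a leading transcript over 90% separate in this way was not computed.

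Per length, in transcripts-per-million units (TPM), the order of the levels over the 6 mice was *Ugt2b5* (mean 662 TPM), *Ugt2b36* (654), *Sult1a1* (312), *Ugt1a1* (303), *Sult2a8* (217), *Ugt3a2* (176), *Ugt2b1* (106), *Ugt2b34* (46.3), *Sult1d1* (26.3) and *Ugt2b35* (19.8). *Ugt2b5* and *Ugt2b36* overlapped with each other, as did *Sult1a1* with *Ugt1a1*, *Sult2a8* with *Ugt3a2*, *Ugt3a2* with *Ugt2b1*, and *Sult1d1* with *Ugt2b35*. *Ugt2b36*, *Ugt1a1*, *Ugt2b1* and *Ugt2b34* each lay above the next gene of this order without overlap over the 6 mice. The most abundant of the 10 lay above 98.6% of the tested genes in mean TPM and the least abundant above 75.6%.

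TPM takes transcript length into account and is scaled to the total of each mouse rather than by TMM. In TPM 4 of the 10 genes separated, namely *Ugt1a1*, *Ugt2b5*, *Ugt2b34* and *Ugt2b35*, all lower in *Sirt7* KO mice, against 9.79% of all tested genes, and of these *Ugt1a1* and *Ugt2b34* did so in CPM too. *Ugt2b1* had 61.6, 93.3 and 67.9 TPM in WT and 92.7, 158 and 163 TPM in *Sirt7* KO mice, so that KO mouse 1 fell just under WT mouse 2. Scaling by the total count in edgeR moved the median of all genes by -0.11 on the log2 scale, and the fold changes of the 10 genes kept their signs with and without that shift taken off.

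The 7 UGT genes followed here held 84.8%, 84.8% and 84.9% of the TPM of all 22 UGT genes in WT and 84.1%, 82.0% and 83.9% in *Sirt7* KO mice. *Ugt2b5* alone took 28.9% to 30.2% in WT and 25.4% to 30.8% in *Sirt7* KO mice. *Ugt2b1* took 2.60%, 3.76% and 2.79% in WT and 4.66%, 6.74% and 6.78% in *Sirt7* KO mice, which did not overlap. *Ugt3a2* took 6.28% to 7.40% in WT and 8.09% to 8.74% in *Sirt7* KO mice. Among the sulfotransferases *Sult1a1* and *Sult2a8* together made up most of the pool in each mouse. In WT mouse 1 another 13.8% came from *Sult2a7*, which held 0.320% to 1.19% in the other 5 mice.

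**Figure D3:**
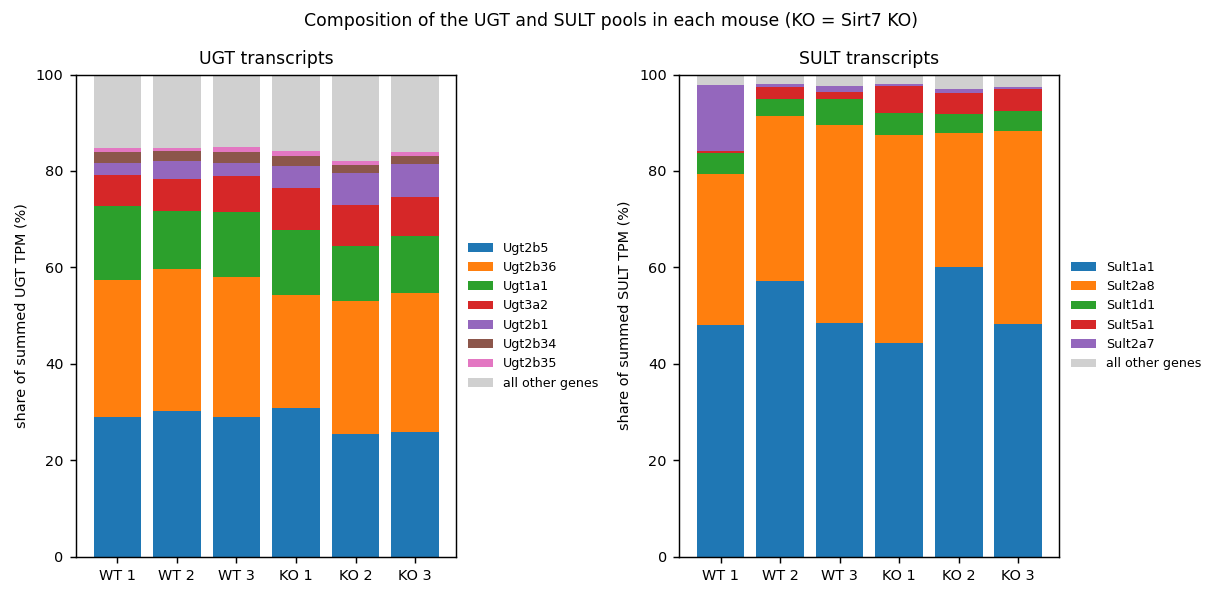
Share of each gene in the summed TPM of 22 UGT genes (left) and 21 SULT genes (right), 1 bar per mouse and 100% in all. *Ugt2b5* and *Ugt2b36* fill most of the UGT bars, *Ugt2b1* is widest in *Sirt7* KO mice 2 and 3 (6.74% and 6.78%), and *Sult2a7* shows in WT mouse 1 (13.8%).

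Of 15 other UGT genes 9 were tested, and edgeR and DESeq2 called 0 of them. *Ugt2b38*, the last Ugt2b gene of the run, had 11.5, 10.1 and 13.6 CPM in WT and 24.0, 16.0 and 20.1 CPM in *Sirt7* KO mice, without overlap. Its log2 fold change was 0.77 (SE 0.21, edgeR adjusted p 0.215). It was the only one of the 9 to pass an unadjusted p of 0.05, and 52.9% of its 31-base words occurred in another gene, chiefly *Ugt2b5*. *Ugt1a5* (0.79, SE 0.39), *Ugt1a9* (-0.43, SE 0.34) and *Ugt1a10* (-0.71, SE 0.64) had wide errors on the log2 scale, and *Ugt1a6a*, *Ugt1a6b*, *Ugt2a3* and *Ugt3a1* lay between -0.06 and 0.06. The error of *Ugt1a6a* was wide as well (SE 0.29), with values from -0.25 to 0.29 when 1 mouse was left out. *Ugt1a7c* had 41.5, 23.8 and 48.7 CPM in WT and 91.6, 17.2 and 9.73 CPM in *Sirt7* KO mice, so that its log2 fold change of 0.06 (SE 0.69) was -1.50 without KO mouse 1 (edgeR adjusted p 0.0726).

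Of 18 other SULT genes only 4 were tested, and 7 had no read in any mouse, among them *Sult2a3*, *Sult2a4*, *Sult2a5* and *Sult2a6*. *Sult5a1* had 2.71, 13.4 and 8.80 CPM in WT and 27.9, 25.7 and 25.2 CPM in *Sirt7* KO mice, without overlap. Its log2 fold change was 1.66 (SE 0.44), with an adjusted p of 0.207 in edgeR and 0.00352 in DESeq2 without length offsets. *Sult1b1*, a sulfotransferase of thyroid hormones and phenols that neighbours *Sult1d1*, had a log2 fold change of 0.95 (SE 0.31, edgeR adjusted p 0.298), and *Sult1c2* one of -0.71 (SE 0.39). *Sult2a7*, the neighbour of *Sult2a8*, had 49.7 CPM in WT mouse 1 and 1.35 to 4.44 CPM elsewhere, so that its log2 fold change of -3.06 (SE 1.06) was -0.62 without that mouse.

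For the supply of UDP-glucuronate 9 of 10 listed genes were tested, with 0 called by edgeR or DESeq2. At an unadjusted edgeR p under 0.05 stood 2, both higher in KO mice, against 6.54% of all tested genes. *Ugdh*, which oxidizes UDP-glucose to UDP-glucuronate, had 293, 312 and 272 CPM in WT and 199, 337 and 285 CPM in *Sirt7* KO mice, and the genotypes overlapped (log2 fold change -0.09, SE 0.20). *Ugp2*, which makes UDP-glucose, stood at 0.02 (SE 0.23), and the phosphoglucomutases *Pgm1* and *Pgm2* at -0.16 (SE 0.16) and 0.41 (SE 0.33). The 2 genes under that p were *Slc35d2* (0.58, SE 0.16) and *Slc35b1* (0.74, SE 0.20) of the nucleotide-sugar transporter family, higher in CPM in every KO mouse. Whether either gene takes part in UDP-glucuronate supply was not tested. Their edgeR adjusted p were 0.216 and 0.224. In TPM both overlapped between the genotypes, and with length offsets in edgeR they stood at 0.37 (edgeR adjusted p 0.616) and 0.69. *Slc35d1*, which carries UDP-glucuronate into the endoplasmic reticulum, stood at -0.37 (SE 0.27). *Uxs1*, which turns UDP-glucuronate into UDP-xylose, stood at 0.25 (SE 0.28) and *Tkfc* at -0.33 (SE 0.15). The median of the list was 0.02.

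For the supply of PAPS 8 of 9 listed genes were tested, with 0 called by edgeR or DESeq2. At an unadjusted edgeR p under 0.05 stood 2, both higher in KO mice, against 6.54% of all tested genes. With all 6 mice, all 8 log2 fold changes were above 0, as were 6179 of the 12524 over all tested genes. The list median was 0.33, and 0.19 without WT mouse 1. Without that mouse *Slc35b2* and *Impad1* were below 0 (-0.07 and -0.06), as they were under total-count scaling (-0.06 each). *Papss1*, one of the PAPS synthases, had 5.08, 4.54 and 3.70 CPM in WT and 9.71, 7.52 and 9.06 CPM in *Sirt7* KO mice, without overlap. Its log2 fold change was 0.98 (SE 0.24, edgeR adjusted p 0.189). *Papss2*, the other synthase, had 51.8, 79.4 and 90.6 CPM in WT and 70.9, 142 and 116 CPM in *Sirt7* KO mice, which overlapped (0.57, SE 0.28). The sulfate transporter *Slc26a1* was higher in every KO mouse (0.36, SE 0.14, edgeR adjusted p 0.379). *Slc35b2* and *Slc35b3*, which carry PAPS into the Golgi, stood at 0.04 (SE 0.17) and 0.36 (SE 0.20). *Suox* stood at 0.31 (SE 0.19), and *Impad1* and *Bpnt1*, which remove the spent donor, at 0.04 (SE 0.17) and 0.13 (SE 0.15).

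**Figure D4:**
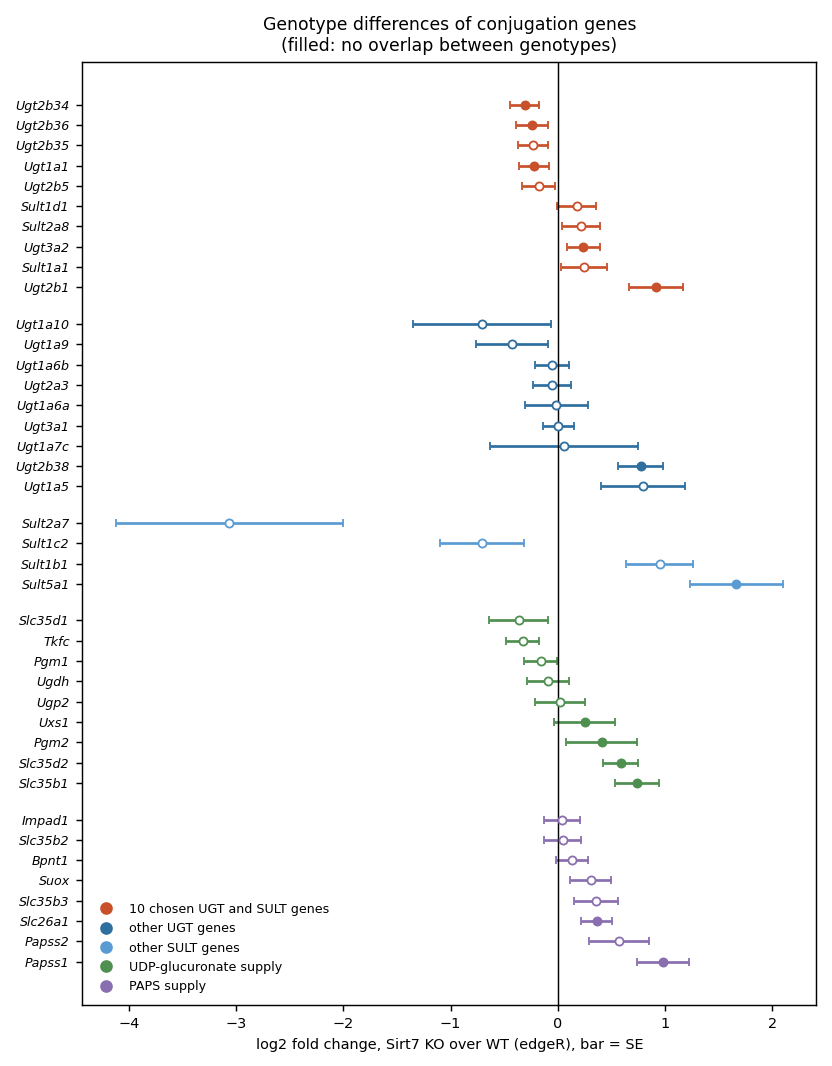
Log2 fold change of *Sirt7* KO over WT with its SE (edgeR, 3 mice per genotype) for the 10 genes and for the tested genes of their families and donor supply; filled points are genes whose genotypes do not overlap in CPM. No gene shown was called by edgeR, and *Ugt2b1* (0.92) is the highest of the 10. With all 6 mice all 8 PAPS genes lie to the right of 0, *Slc35b2* and *Impad1* by only 0.04 each.

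Among the transporters that move conjugates, *Slc22a7*, an organic anion transporter, had 15.7, 9.53 and 9.76 CPM in WT and 43.1, 84.2 and 112 CPM in *Sirt7* KO mice. This difference of 2.77 on the log2 scale (SE 0.35) had an adjusted p of 0.0553 in edgeR and 6.91e-15 in DESeq2 without length offsets. *Abcc4* had the lowest value of the 10 transporters (-0.95, SE 0.44). Of 5 hydrolases listed as deconjugating enzymes 4 were in the annotation and tested. Among these *Arsb* stood highest (0.24, SE 0.25) and *Arsa* lowest (-0.48, SE 0.15). Whether they act on the products of UGT or SULT enzymes was not tested. Of 15 other conjugating enzymes 6 had an unadjusted edgeR p under 0.05, all 6 higher in KO mice against 6.54% of all tested genes. Both edgeR and DESeq2 called 0 of the 15. The list median was 0.23, and 0.14 without WT mouse 1. At the ends of this list stood *Nat8* (0.98, SE 0.32) and *As3mt* (-0.29, SE 0.31).

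Of 15 tested transcription factors listed as regulators of conjugation genes 1 was higher and 4 were lower at an unadjusted edgeR p under 0.05. Over all tested genes 6.54% were higher and 4.78% lower by that rule. The median log2 fold change of the list was -0.29. *Nr1i3*, which encodes the xenobiotic receptor CAR, had 452, 630 and 713 CPM in WT and 310, 288 and 326 CPM in *Sirt7* KO mice, without overlap. Its log2 fold change was -0.96 (SE 0.19), with an adjusted p of 0.145 in edgeR and 0.000328 in DESeq2 without length offsets. *Bcl6* stood highest (1.88, SE 0.43), with an adjusted p of 0.166 in edgeR and 0.000543 in DESeq2 without length offsets. Of 10 targets of CAR and PXR, 1 was higher and 1 lower at an unadjusted edgeR p under 0.05, against the same 6.54% and 4.78%. At the ends of that list stood *Gstm3* (1.17, SE 0.68) and *Por* (-0.52, SE 0.21). Of 5 listed partners of the UGT enzymes and of P450 in the endoplasmic reticulum membrane *Cyb5r3* (0.77, SE 0.24) and the epoxide hydrolase *Ephx1* (-0.84, SE 0.19) were farthest apart.

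Among sex-biased liver genes edgeR called 0 of 15 tested male-biased and 0 of 4 tested female-biased genes. DESeq2 without length offsets called 5 and 1, under a rule that called 1.78% of genes. Of the male-biased genes 9 were higher in every *Sirt7* KO mouse, against 8.74% of all tested genes. At an unadjusted edgeR p under 0.05 stood 9, all of them higher, against 6.54% of all tested genes. Their median log2 fold change was 1.27 and, without WT mouse 1, whose sum of these genes was the lowest, 0.97, with values from -0.03 for *Cyp2d9* to 4.41 for *Hsd3b5*. The 15 listed female-biased genes summed to 300, 230 and 214 CPM in WT and 50.7, 43.9 and 20.8 CPM in *Sirt7* KO mice, and the 4 tested, with a median of -2.46 that was -1.29 without WT mouse 1, ranged from -3.85 for *Cyp2b9* to -0.11 for *Cyp17a1*. The part of these differences in the values of the UGT and SULT genes was not tested. The median of 7 tested hepatocyte markers was 0.39 on the log2 scale, and none had an unadjusted edgeR p under 0.05. Their summed level was 51078 to 54003 CPM in WT and 55283 to 65167 CPM in *Sirt7* KO mice, without overlap. The 5 erythrocyte markers summed to 374 to 547 CPM in WT and 446 to 915 CPM in *Sirt7* KO mice. The sums of the cholangiocyte, stellate, macrophage, endothelial and lymphocyte markers overlapped between the genotypes.

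**Figure D5:**
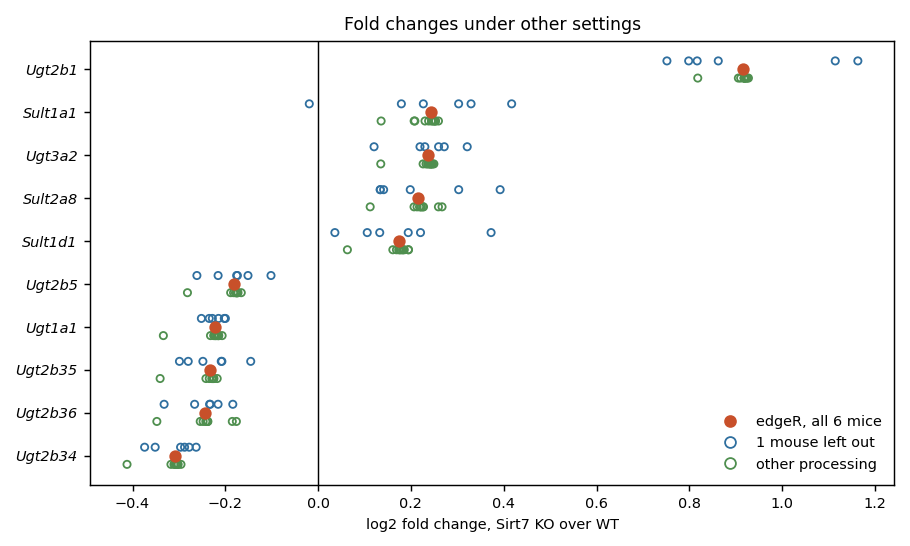
Log2 fold change of *Sirt7* KO over WT for each of the 10 genes with all 6 mice (filled), with 1 mouse left out (upper open points) and under other processing (lower open points). *Ugt2b1* stays between 0.75 and 1.16, and *Sult1a1* passes 0 (-0.019) without KO mouse 2.

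Under every other normalization, filter and tool the 10 genes kept the sign of their fold change, and with 1 mouse left out 9 of the 10 did, the exception being *Sult1a1*. Their fold changes other than that of *Ugt2b1* were at most 0.42 on the log2 scale in either direction in any of these fits.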

How the data were processed

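Liver RNA of 3 WT and 3 *Sirt7* KO mice was analyzed, grouped by the genotype in the labels. According to the submitters' processing notes the authors trimmed reads with Trim Galore 0.6.5 and quantified them with Salmon 1.2.1 on the GRCm38 transcriptome. Per transcript, the deposited files give an estimated count, not normalized, and TPM, which the authors' Salmon run scaled to transcript length and to a total per mouse; the deposited lengths served only as offsets. Replicates were not pooled. The annotation release is not given in the sources used here. Counts were summed over the transcripts of each GENCODE M21 gene (1201 of 140992 transcripts had none) and rounded. Reads per mouse ranged from 9994860 to 13424776. No molecular identifiers are named, so depth covers counting error only.

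edgeR 4.0.16 (R 4.3.3; TMM, filterByExpr with minimum count 10, quasi-likelihood test, Benjamini-Hochberg adjustment) tested 12524 genes. A call needed an adjusted p under 0.05 and a fold change over 1.5. Single values and family sums were compared by exact two-sided permutation of log2(CPM + 0.5), which cannot go below p = 0.1 with 3 mice against 3. No pair of libraries of one genotype agreed within sampling noise (chi-square of at least 16.9 per gene), so none was counted as deposited again. The labels do not say more about how the replicates were taken, and p-values measure only the spread between these libraries. Alternatives were other normalizations and filters, length offsets, DESeq2 1.42.0, limma-voom (limma 3.58.1), a replicate block, summed paralogs, other thresholds, another pseudocount, and each mouse left out. The 10 genes and the pathway lists were chosen with earlier results of these data known. The text names *Sirt7*, the 10 genes, each tested gene of the UGT, SULT and donor lists and, from other lists, the genes with the largest and smallest log2 fold change; *Slc34a1*, *Umod* and *Fabp2*, and the untested family members, were named after their values were seen. RefSeq promoter windows (GRCm38.p6) matched 9 of the 10 genes, and *Ugt3a2* was not matched. HNF4 (CAAAGTCCA) and STAT5 (TTCNNNGAA) letters were found in none of the 10 windows of these genes and in 0.384% and 7.02% of all windows. One gene and one planned motif are not reported here.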

Additional observations from a re-analysis of the deposited data

How the results depend on the processing

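No gene of the 10 was called by edgeR in the setting reported. *Ugt2b1* alone was called, so 1 of 10, with no filter on low counts (log2 fold change 0.92, 633 genes called in all), by DESeq2 without length offsets (0.92, 256 genes) and with them (0.93, 245 genes), and with an unadjusted p under 0.05 and a fold change over 1.5 (925 genes). The edgeR fit called 1 gene, and 2 under total-count scaling, with length offsets or by limma-voom. The number of the 10 with an unadjusted p under 0.05 was 2, beside 1418 of all genes. It was 1 with RLE normalization (1422 of all genes), with no filter (2362) and with length offsets (1317). In DESeq2 it was 1 without length offsets (1437) and 1 with them (1496). Under total-count scaling, which moved the median of all genes by -0.11, it was 4 (1513), with *Ugt2b1* higher and *Ugt1a1*, *Ugt2b34* and *Ugt2b36* lower. With each mouse left out, 0 to 252 genes were called and 0 to 1 of the 10 were called. In these fits 1 to 2 of the 10 had an unadjusted p under 0.05, beside 994 to 2208 of all genes. The 252 genes, and the call of *Ugt2b1* (1.11), came without *Sirt7* KO mouse 1, and edgeR called 0 genes without WT mouse 2, WT mouse 3, KO mouse 2 or KO mouse 3, with 994 to 1276 at an unadjusted p under 0.05. *Sult1a1* changed sign without *Sirt7* KO mouse 2 (-0.019), and ranged up to 0.42 without KO mouse 1. The cause of these changes was not tested. A pseudocount of 1 changed no direction of the 10.

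The replicate number as a block raised the genes called to 41 and left 1 of the 10 with an unadjusted p under 0.05, beside 1431 of all genes. The deviations of same-numbered mice from their genotype means had correlations of 0.07, 0.06 and -0.05, beside -0.09 to 0.05 for the other pairs. With 3 mice per genotype such values cannot show or exclude a pairing, and the labels name none.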
